A study of Mus musculus with 6 samples.

Results

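The CDK inhibitors and pocket proteins described here are 10 genes: Cdkn1a, Cdkn1b and Cdkn1c of the CIP/KIP family, Cdkn2a, Cdkn2b, Cdkn2c and Cdkn2d of the INK4 family, and the pocket proteins Rb1, Rbl1 and Rbl2. They were found by their exact name among the non-control probes of an Agilent mouse array, which gave 16 probes on 34 spots, out of 55681 probes and 36406 gene names in all. The samples were muscle stem cells (satellite cells), sorted by flow cytometry for integrin alpha7 and CD34 and against CD31, CD45, CD11b and Sca1. The tested animals were adult male C57BL/6 mice of 6 months (3 samples), set against young male C57BL/6 mice (3 samples, of 3, 2 and 3 months for replicates 1, 2 and 3). No treatment or transgene is given for either group, and the number of mice behind a sample is not stated. RNA was amplified across the whole transcriptome, and the labels call the samples biological replicates. The comparison asked how the transcripts of cell cycle inhibitors differ in sorted muscle stem cells between the ages.

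CDK inhibitors bind cyclin-dependent kinases and stop cells from entering the cycle. INK4 proteins hold the kinases that work with D cyclins, while CIP/KIP proteins bind a wider range of cyclin and kinase complexes. When these kinases are held back, the pocket proteins stay bound to E2F transcription factors and keep replication genes low. Satellite cells rest outside the cycle for most of adult life, and the same inhibitors take part in their rest, in their exit from the cycle on differentiation and in senescence. Cdkn1c is imprinted: its maternal copy is transcribed, and the paternal copy is kept low by the long non-coding RNA Kcnq1ot1 made from the same domain of chromosome 7.

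Every value below is a log2 signal relative to the 75th percentile of its own array unless raw signal is named, and every difference is adult minus young. A probe counted as higher or lower when its adjusted p in the limma fit over 48404 probes was under 0.05. The arrays numbered 3 in each group, which limits the precision of every value. The adult arrays had 47554 to 49957 probes well above background and the young arrays 41528 to 45926. Correlations across probes lay between 0.938 and 0.952 within the groups and between 0.837 and 0.924 across them. The difference of a probe moved with its brightness. Its median over all probes was 0.31, and in 4 bins of rising mean level, of 12101 probes each, it was 1.40, 0.59, 0.01 and -0.31. Of the defining satellite cell markers, Pax7 averaged 3.46 ± 0.31 on adult and 3.78 ± 0.27 on young arrays (SD, n = 3 each), and Cd34 averaged 3.13 ± 0.22 and 3.29 ± 0.20. Pax7, Cd34, Itga7, Vcam1 and Myf5 were measured in both groups. Their summed level lay between 4.41 and 4.87 on adult arrays and between 4.98 and 5.26 on young arrays. Of the 5, 2 were called lower in the limma fit, Itga7 by -1.06 ± 0.20 (adjusted p 0.0265) and Vcam1 by -0.86 ± 0.21 (adjusted p 0.0389). With 1 probe per gene, 2517 of all 32103 genes were called lower. With 1 array left out, 0 to 1 of the 5 markers were.

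Probes of one member read different stretches of its transcripts, and the stretches shown are those on which the results turn. Each is the first 30 bases of a 60-base probe as printed in the files, in the direction of the transcript, with its position on mouse build mm9. The Cdkn1c stretch lies at chr7:150644783-150644812 on the minus strand, and the Cdkn1a stretches lie on the plus strand at chr17:29237377-29237406, chr17:29235299-29235328 and chr17:29227986-29228015. The Rbl1 stretches lie on the minus strand at chr2:156972173-156972202 and chr2:157000791-157000820. Which exon or untranslated region holds each probe was not annotated in the files.
Cdkn1c, A_51_P339540: cgtagagcagcccacggttttgtggaaatc
Cdkn1a, A_51_P363947: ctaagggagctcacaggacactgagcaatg
Cdkn1a, A_55_P1976204: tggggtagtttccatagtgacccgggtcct
Cdkn1a, A_55_P1986282: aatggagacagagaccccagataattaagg
Rbl1, A_51_P286665: acactggaggtttagccttctgaagaatca
Rbl1, A_55_P2024773: ccgagaggaattggaggaggggaaaacttg

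Of the 16 probes, 14 were well above background on at least 3 arrays and entered the fit. Cdkn1c was lower in adult cells, and 1 of the 3 Cdkn1a probes was higher. The other 12 probes, among them every INK4 and pocket protein probe tested, did not pass. The 2 calls among 14 probes stand beside 23.6% of all probes called in either direction, 5.98% called lower and 17.6% called higher in adult cells. Over the brightest probe of each of the 10 members the median difference was -0.23, against 0.33 over all 32103 genes. The all-gene median is not matched for brightness, and the medians of the level bins ran from 1.40 in the dimmest to -0.31 in the brightest. With 1 probe per gene, 2517 of the 32103 genes were called lower and 6637 higher, and these shares stand beside the gene lists below.

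**Figure D1:**
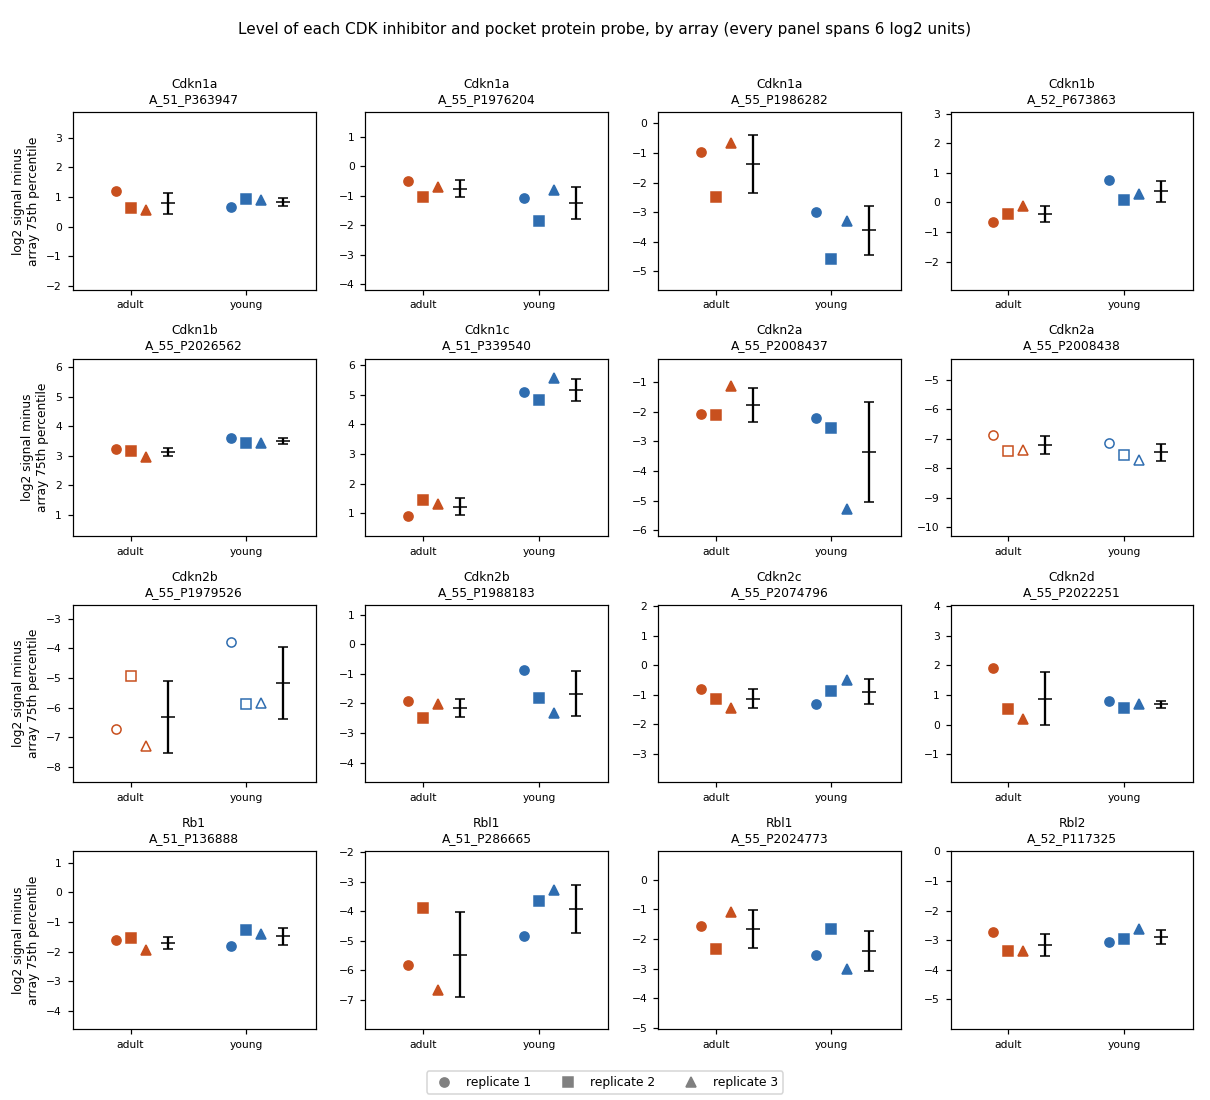
Level of all 16 probes on each array, as log2 signal minus the array's 75th percentile, with adult samples (orange) left of young samples (blue). Bars give the mean ± SD of 3 arrays, every panel spans 6 log2 units, and open symbols mark the 2 probes left out of the fit; Cdkn1c shows adult values between 0.89 and 1.46 and young values between 4.82 and 5.57.

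Cdkn1c, which encodes the CIP/KIP inhibitor p57, stood apart from the rest of the family. Its level was 0.89, 1.46 and 1.32 on adult arrays 1, 2 and 3, and 5.09, 4.82 and 5.57 on young arrays 1, 2 and 3. All adult values lay below all young values, with a gap of several log2 units between the groups. The same separation stood in the raw processed signals before any scaling, which were 968, 1653 and 1274 on adult arrays and 18299, 18428 and 35631 on young arrays. The difference was -3.93 ± 0.28 (SE), a level 15.3-fold lower in adult cells, with an adjusted p of 0.00871 in the limma fit (95% interval -4.62 to -3.25). Relative to the median of all probes the difference was -4.24. The probe belongs to the brightest level bin, where the median difference was -0.31 and 1711 of 12101 probes were called lower. It was the 8th most negative of the 48404 differences. In the fits that left out any 1 array, it stayed between -4.10 and -3.73 and past the threshold; without young replicate 2 it was -4.10 (adjusted p 0.00517). The young sample of 2 months had the lowest of the young levels, still above every adult one. Cdkn1c was read by 1 probe on 1 spot, which the files list for 2 RefSeq transcripts. In these bulk samples, fewer cells that make a transcript and less transcript per cell cannot be told apart.

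**Figure D2:**
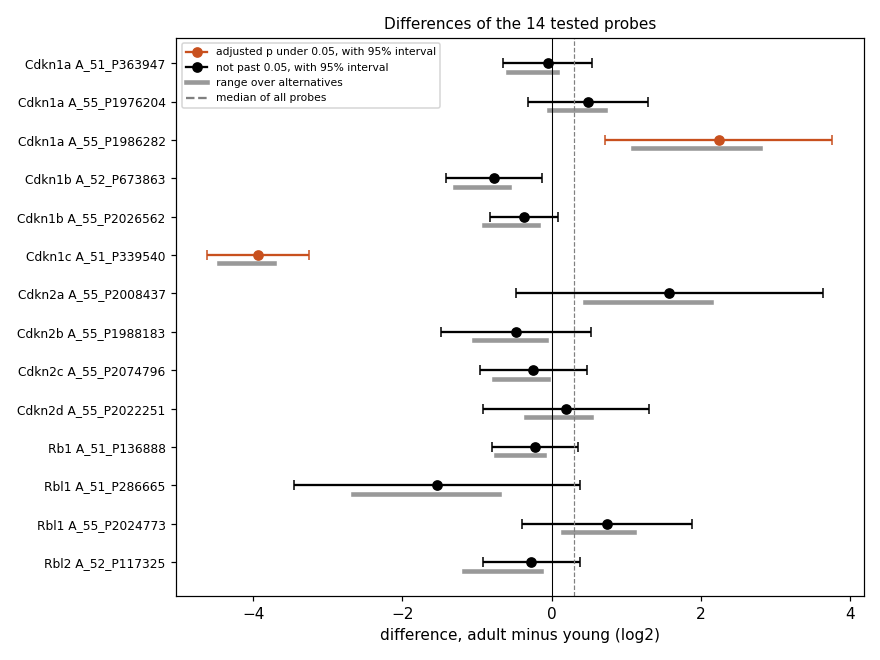
Difference between adult and young arrays (log2) of the 14 tested probes, with its 95% interval, orange where the adjusted p was under 0.05. Grey bars give the range over the alternative settings and the dashed line the median of all probes (0.31); Cdkn1c lies at -3.93 with alternatives from -4.46 to -3.73, and the upstream Cdkn1a probe at 2.24 with alternatives from 1.09 to 2.80.

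The neighbours of Cdkn1c in the Kcnq1 imprinted domain did not share one direction. Of the 10 genes listed, 9 were measured, with lower levels for 2, a higher level for 1 and no call for 6. Their median difference was 0.67, against 0.33 over all genes, a value not matched for brightness. The median of the domain moved with the scaling, to -0.028 with quantile normalization, where 0 genes were called. In the deposited log2 values it was -0.009, with 2 lower and 0 higher. Kcnq1ot1, the RNA that silences the paternal copies of the domain, had -0.07, 0.44 and -0.39 on adult arrays and 1.09, 1.14 and 1.07 on young arrays. Its groups did not overlap, and the adult arrays were the lower ones. The difference was -1.11 ± 0.26 (adjusted p 0.0356), and its other probe, about 6 kb away, was also lower, by -0.77 ± 0.22 (adjusted p 0.0492). Kcnq1ot1 runs antisense inside Kcnq1, and whether the labelling kept the strand is not given, so signal from the overlap may belong to either gene.

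Nap1l4, a histone chaperone gene on the other side of Cdkn1c, was lower by -0.73 ± 0.20 (adjusted p 0.0452) at its brighter probe and by -1.30 ± 0.19 (adjusted p 0.0194) at the other. Trpm5, a taste-cell cation channel gene, was higher by 1.20 ± 0.23 (adjusted p 0.0271) from a dim level, and passed in 1 of 5 scaling alternatives. Kcnq1, the potassium channel gene next to Cdkn1c, differed by 2.42 ± 0.83 (adjusted p 0.0753), but was well above background on 1 young array, and its difference was 0.26 in the deposited values and 3.21 without young replicate 2. Slc22a18 differed by 1.29 ± 0.59, Tspan32 by 0.67 ± 0.33, Ascl2 by 1.12 ± 0.35, Cd81 by -0.31 ± 0.18 and Tssc4 by -0.46 ± 0.38, and these did not pass. Ascl2 fell on either side of 0 according to the scaling, at -0.03 with quantile normalization. No fit that left out 1 array kept Kcnq1ot1 or Nap1l4 past the threshold at its brightest probe, in contrast to Cdkn1c. Such fits are not given for the other probe of either gene.

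**Figure D3:**
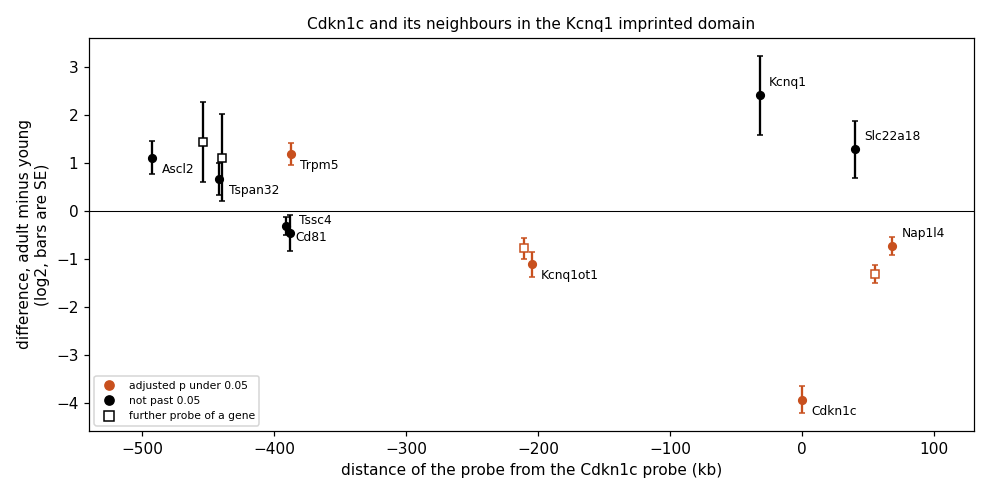
Differences between adult and young arrays (log2, bars are SE) of Cdkn1c and the measured genes of its imprinted domain, against the distance of each probe from the Cdkn1c probe in kb. Open squares are further probes of a gene and orange marks an adjusted p under 0.05; Cdkn1c lies at -3.93, Kcnq1ot1 at -1.11 and the nearest neighbour, Kcnq1, at 2.42, a probe well above background on 1 young array and at 0.26 in the deposited values.

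Cdkn1a encodes p21, the CIP/KIP inhibitor that p53 induces, and its 3 probes gave 3 different readings. The brightest probe, A_51_P363947, is listed for RefSeq transcript variants 1 and 2 and lies towards the end of the transcript, at position 1619. It read 1.19, 0.61 and 0.54 on adult arrays and 0.66, 0.93 and 0.91 on young arrays. The groups overlapped, and adult array 1 was the highest of the 6. The difference was -0.05 ± 0.25 (adjusted p 0.880, 95% interval -0.65 to 0.55). The SD over its 10 repeat spots was between 0.03 and 0.09 on each array, against 0.36 between adult and 0.15 between young arrays.

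The probe A_55_P1986282 is listed for variant 2 and not for variant 1, at position 55 and 9391 bases upstream of the first probe on the chromosome. It read -0.97, -2.49 and -0.66 on adult arrays and -2.99, -4.57 and -3.29 on young arrays, so that the groups did not overlap. The difference was 2.24 ± 0.63, a level 4.73-fold higher in adult cells (adjusted p 0.0490, limma). That call was lost in 14 of 17 alternatives, among them every fit without 1 array, where the adjusted p was up to 0.135. The probe belongs to the second dimmest of the 4 level bins, where the median difference was 0.59 and 2468 of 12101 probes were called higher.

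The third probe, A_55_P1976204, is listed for an Ensembl transcript and lies between the others. It read -0.50, -1.06 and -0.72 on adult arrays and -1.10, -1.85 and -0.80 on young arrays. Young array 3 lay within the adult range, and the difference of 0.49 ± 0.33 did not pass (adjusted p 0.281). The gap between the brightest and the most upstream probe averaged 2.16 ± 0.95 on adult and 4.45 ± 0.95 on young arrays (SD, n = 3 each). The gap thus differed by -2.29 between adult and young arrays, a value given as a description, since these probes were known to disagree.

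**Figure D4:**
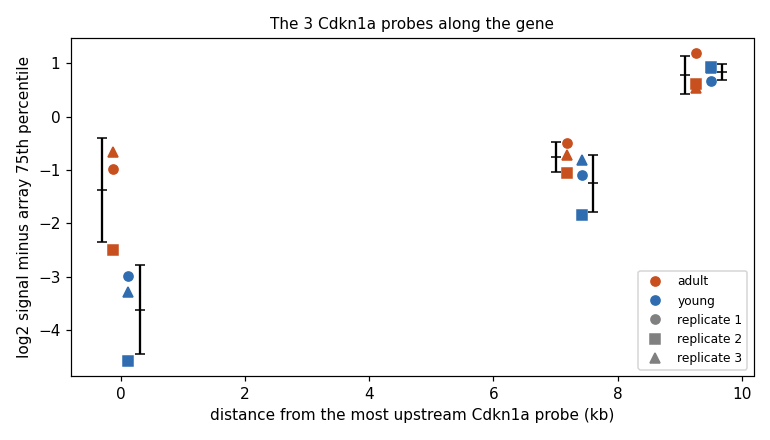
Levels of the 3 Cdkn1a probes on each array (log2 signal minus the array's 75th percentile) against their distance from the most upstream probe in kb, adult in orange left of young in blue, with mean ± SD of 3 arrays. At the upstream end the adult values lie between -2.49 and -0.66 and the young values between -4.57 and -2.99, while at the far end, 9391 bases away, the groups overlap.

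RefSeq lists 2 transcription starts for Cdkn1a, 2790 bases apart, so the 250 bases before each are shown. The windows are from build GRCm38.p6 on the plus strand, chr17:29090729-29090978 for the upstream start and chr17:29093519-29093768 for the downstream start. Which probe follows which start is not given in the files. Capitals mark CATGNNNNNNCATG, the core letters of a p53 binding site, which reads the same on both strands.
Cdkn1a, upstream start: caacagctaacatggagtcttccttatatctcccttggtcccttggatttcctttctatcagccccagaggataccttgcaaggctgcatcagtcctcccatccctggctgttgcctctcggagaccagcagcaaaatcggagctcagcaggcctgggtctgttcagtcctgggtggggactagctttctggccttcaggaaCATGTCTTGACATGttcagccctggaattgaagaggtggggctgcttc
Cdkn1a, downstream start: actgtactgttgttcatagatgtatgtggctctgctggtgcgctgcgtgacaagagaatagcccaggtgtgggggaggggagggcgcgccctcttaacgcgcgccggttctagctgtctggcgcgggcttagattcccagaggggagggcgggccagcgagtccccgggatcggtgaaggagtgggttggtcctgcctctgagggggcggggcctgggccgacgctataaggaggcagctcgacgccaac
The upstream window held the pattern once, from 48 to 35 bases before the start, and the downstream window did not hold it. Of 32851 windows of this length in the table, 161 held it (0.490%). Of the 11 windows of 8 members in the table, the upstream Cdkn1a window was the 1 that held it.

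Cdkn1b encodes p27, the CIP/KIP inhibitor linked to resting cells. Its brighter probe, A_55_P2026562 at chr6:134875424-134875483, read 3.23, 3.16 and 2.96 on adult arrays and 3.61, 3.42 and 3.44 on young arrays. The other probe, A_52_P673863 at chr6:134873606-134873665, read -0.66, -0.38 and -0.14 on adult arrays and 0.76, 0.08 and 0.28 on young arrays. At both probes each adult value lay below each young value. Such separation was common: 5 of the 14 tested probes and 52.6% of all probes had groups that did not overlap. The differences were -0.37 ± 0.19 (adjusted p 0.169) and -0.77 ± 0.26 (adjusted p 0.0757), and neither passed. Both probes passed with median scaling, at -0.90 and -1.30, where the median of all probes was -0.22, and the dimmer one also with a trended, robust variance (adjusted p 0.0410).

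Among the INK4 genes no tested probe passed in the limma fit, nor had an unadjusted p under 0.05. The tumour suppressor locus Cdkn2a encodes both p16 and the p53 activator Arf, and both of its probes are listed for the 2 RefSeq variants, so the products were not read apart. Its probe A_55_P2008437, at chr4:88920405-88920464, read -2.08, -2.12 and -1.11 on adult arrays and -2.22, -2.55 and -5.28 on young arrays. The adult values lay above the young ones, by a narrow margin except against young array 3. The difference of 1.58 ± 0.85 did not pass (adjusted p 0.191), and without young replicate 3 it was 0.61. The second probe, A_55_P2008438, 138 bases upstream, was not well above background on any of the 6 arrays, with raw signals of 3.08 to 4.47 on adult and 3.51 to 3.80 on young arrays. The probes thus disagreed on whether the transcript was detected.

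Cdkn2b, which encodes p15 and neighbours Cdkn2a, read -1.93, -2.49 and -2.02 on adult arrays and -0.86, -1.81 and -2.33 on young arrays at A_55_P1988183. The groups overlapped, and the difference was -0.48 ± 0.41 (adjusted p 0.389). Its other probe, A_55_P1979526, was well above background on 1 adult and 1 young array and was not tested. Cdkn2c, which encodes p18, had -0.80, -1.16 and -1.44 on adult arrays and -1.30, -0.88 and -0.48 on young arrays, a difference of -0.24 ± 0.29 (adjusted p 0.540). Cdkn2d, which encodes p19, had 1.90, 0.54 and 0.19 on adult arrays and 0.80, 0.58 and 0.68 on young arrays. Adult array 1 was high and the other adult arrays lay below the young ones. The difference was 0.19 ± 0.46 (adjusted p 0.760), and it turned to -0.32 without adult replicate 1 and to -0.34 with median scaling.

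No pocket protein probe passed in the limma fit, and none had an unadjusted p under 0.05. Rb1, the retinoblastoma protein gene, read -1.62, -1.54 and -1.95 on adult arrays and -1.80, -1.27 and -1.39 on young arrays. The groups overlapped, the difference was -0.22 ± 0.24 (adjusted p 0.485), and its 95% interval ran from -0.79 to 0.35. Rbl2, which encodes p130, the pocket protein that predominates in resting cells, read -2.73, -3.36 and -3.38 on adult arrays and -3.08, -2.95 and -2.62 on young arrays. Its difference was -0.27 ± 0.27 (adjusted p 0.446), while in the authors' deposited log2 values it was -0.63 with an adjusted p of 0.0412.

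Rbl1, which encodes p107, was read by probes for different transcript variants, and they differed in sign. The variant 1 probe, A_51_P286665, read -5.83, -3.89 and -6.68 on adult arrays and -4.85, -3.66 and -3.27 on young arrays. It was well above background on 1 adult and 2 young arrays. The variant 2 probe, A_55_P2024773, lies 28618 bases upstream and read -1.55, -2.35 and -1.07 on adult arrays and -2.53, -1.66 and -2.998 on young arrays. The groups overlapped at both probes. The differences were -1.54 ± 0.79 (adjusted p 0.175) and 0.74 ± 0.47 (adjusted p 0.254). In the deposited log2 values the variant 1 probe passed, at -0.71 with an adjusted p of 0.0452.

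Most calls among the cyclins and kinases that these inhibitors bind were lower in adult cells. Of 11 genes listed, 8 were measured, with lower levels for 4, a higher level for 1 and no call for 3, and a median of -0.62 against 0.33 over all genes. These counts include the phosphatase gene Cdc25a, which is neither a cyclin nor a kinase gene and was not called (-0.31 ± 0.26). The all-gene median is not matched for brightness, and over the brightest level bin of probes the median was -0.31. The kinase gene Cdk4, a partner of the D cyclins, averaged 2.61 ± 0.18 on adult and 3.78 ± 0.09 on young arrays (SD, n = 3 each), 2.24-fold lower (adjusted p 0.0229). Its other 2 probes were also lower, by -1.08 and -1.30. The D cyclin genes differed in sign: Ccnd3 was lower by -0.94 ± 0.19 (adjusted p 0.0285) and Ccnd2 was higher by 1.90 ± 0.37 (adjusted p 0.0275). Ccnd1, the cyclin that responds to growth signals, and Cdk2 were the other lower ones. Cdk1, the kinase of mitosis, gave 0.70 ± 0.30 at its brightest probe (adjusted p 0.124), but -3.60 and -3.04 at its other 2, both past the threshold.

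Of 10 E2F factors and their DNA-binding partners, 2 were lower and 8 did not pass, with a median of -0.50 (6 were lower with median scaling). E2f2, an activator held by RB1, had 0.94, 1.78 and 1.41 on adult arrays and 3.27, 3.44 and 3.50 on young arrays. The groups were far apart, and E2f2 was 4.07-fold lower (-2.03 ± 0.27, adjusted p 0.0172), past the threshold in 5 of 6 fits without 1 array. E2f3 was lower by -1.24 ± 0.32 (adjusted p 0.0431), and Tfdp1 differed by -0.90 ± 0.27 (adjusted p 0.0565). Of the 7 genes listed for the DREAM and MuvB complexes (median -0.14), the histone-binding subunit gene Rbbp4 was lower (-1.02 ± 0.27, adjusted p 0.0431). The others did not pass, with Foxm1 at -0.85 ± 0.27 and Lin9 at 0.89 ± 0.36.

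Of 14 replication genes under E2F control, 4 were lower and 1 higher, while 9 were not called, with a median of -0.72 (8 were lower and 0 higher with median scaling). The helicase subunit gene Mcm2 was lower by -1.96 ± 0.30 (adjusted p 0.0207) and Mcm3 by -1.43 ± 0.31 (adjusted p 0.0315). Cdt1 and Rrm2 were the other lower ones. Tyms, which encodes thymidylate synthase, was higher by 1.34 ± 0.27 (adjusted p 0.0295). With 1 array left out, the lower calls numbered 0 to 1 among cyclins and kinases, 0 to 1 among E2F genes and 0 to 2 among replication genes.

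**Figure D5:**
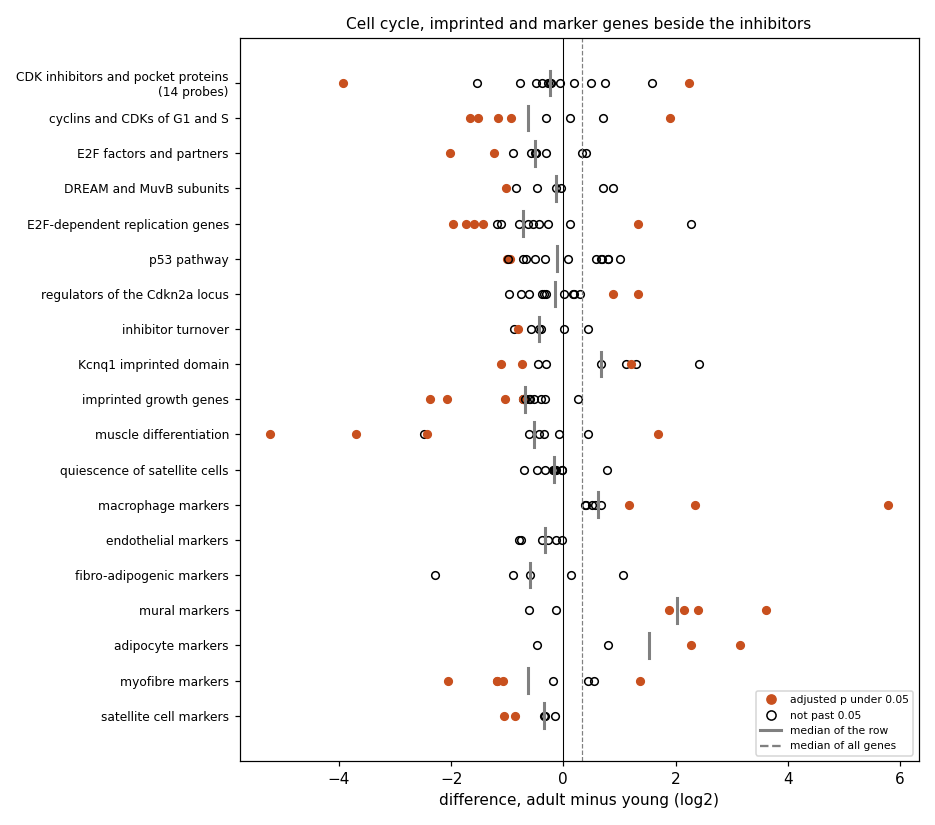
Difference between adult and young arrays (log2) of the 14 inhibitor and pocket protein probes (top row) and of each measured gene of 18 lists, 1 point per gene by its brightest probe, filled where the adjusted p was under 0.05. Grey ticks give each row's median and the dashed line the median of all genes (0.33); Myog at -5.22 and Tyrobp at 5.78 lie at the ends.

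Genes of the p53 pathway, regulators of the Cdkn2a locus and genes for ligases of the inhibitors were mixed. In the p53 pathway, a list that holds p53 targets beside Trp53, 2 of 14 genes were lower and 12 did not pass, with a median of -0.12. The counts were 7 lower and 0 higher with median scaling, and 4 lower and 3 higher in the deposited values. Trp53, the activator of Cdkn1a, was lower by -0.94 ± 0.23 (adjusted p 0.0391), and Ccng1, a p53 target, by -1.005 ± 0.18 (adjusted p 0.0250). Sesn1, another target, differed by -0.98 ± 0.30 and did not pass. Of 12 measured regulators of the Cdkn2a locus (median -0.15), Id1, an inhibitor of its activators, was higher by 1.33 ± 0.30 (adjusted p 0.0335) and passed in 3 of 5 scaling alternatives. Tbx3, a repressor of the locus, was higher by 0.88 ± 0.25 (adjusted p 0.0492) and passed in 1 of 5 scaling alternatives. Across this list the calls turned with the scaling, from 2 higher and 0 lower to 3 lower and 0 higher with median scaling, 2 lower and 0 higher with quantile normalization, and 3 lower and 1 higher in the deposited values. Bmi1, the Polycomb repressor of the locus, differed by -0.97 ± 0.28 (adjusted p 0.0526). Of 7 genes for the ligases that degrade the inhibitors (median -0.44), the adaptor gene Ddb1 was lower by -0.81 ± 0.19 (adjusted p 0.0371), and with median scaling 5 were lower. Skp2, which targets p27, differed by -0.89 ± 0.27 (adjusted p 0.0589), and Cul1 by -0.44 ± 0.18. With 1 array left out, 0 to 1 of the p53 pathway genes and 0 of the others in these lists passed.

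Cdkn1c was set beside other imprinted genes and beside muscle differentiation genes. Of 14 measured imprinted growth genes outside its domain, 4 were lower and 10 did not pass, with a median of -0.68. Dlk1, a Notch ligand family member made from the paternal copy, was 5.19-fold lower (-2.37 ± 0.30, adjusted p 0.0164). Mest, also paternally expressed, was 4.20-fold lower, and the adaptor gene Grb10 was 2.05-fold lower. The count of lower genes was 12 with median scaling, 3 with quantile normalization and 0 to 3 with 1 array left out. Of 10 muscle differentiation genes, 3 were lower and 1 was higher, with a median of -0.53 (6 and 1 with median scaling). Myog, the factor that starts terminal differentiation, had -4.09, -3.35 and -3.85 on adult arrays and 1.44, 1.18 and 1.76 on young arrays. The groups were far apart, and Myog was 37.3-fold lower (-5.22 ± 0.28, adjusted p 0.00871), past the threshold in each fit without 1 array. Mymk, needed for myoblast fusion, was 12.95-fold lower and also passed in each such fit, and Chrna1, an acetylcholine receptor subunit gene, was 5.38-fold lower. The higher gene of this list was Mef2c, by 1.69 ± 0.25 (adjusted p 0.0201, limma). Of 10 genes linked to satellite cell quiescence, 0 passed in the limma fit and 1 had an unadjusted p under 0.05, Calcr, at -0.71 ± 0.21 (adjusted p 0.0541). Hes1 differed by 0.78 ± 0.32 and Hey1 by -0.47 ± 0.23. Their median was -0.16, and 2 were lower with median scaling.

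The genes whose profile over the 6 arrays was most like that of Cdkn1c were Tmem60 (r = 0.9998), Btbd1 (0.998), Myog (0.998), Lman2 (0.998) and Arpc4 (0.997). These are Pearson correlations across 6 arrays that fall into the 2 age groups, given as a measure of likeness with no test, and 51 of 16353 annotated genes exceeded 0.99. Likeness to Cdkn1c fixes their direction but not their size, which was -0.88 for Tmem60, -1.22 for Btbd1 and -5.22 for Myog.

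Markers of other cell types differed in both directions beside these results. Of 8 macrophage markers (median 0.62), 3 were higher and none lower. Over all genes, with 1 probe per gene, 6637 of 32103 were called higher and 2517 lower. Their summed level was 8.61 to 8.70 on adult and 7.81 to 8.77 on young arrays, but 1 probe carried it, that of Itgam, which averaged 8.62 on adult and 8.21 on young arrays. Without Itgam the sums were 3.60 to 3.74 on adult and 2.94 to 3.27 on young arrays. The signalling adaptor gene Tyrobp, not well above background on any young array, was at least 31.7-fold higher (adjusted p 0.0164). Its fitted difference of 5.78 became 6.64 without adult replicate 1, and the call was lost without adult replicate 2 and without adult replicate 3. Adgre1 was higher by 2.34 ± 0.46 and Cd14 by 1.17 ± 0.21, and Cd14 passed in 1 of 5 scaling alternatives.

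Of 6 mural cell markers (median 2.02), 4 were higher, Kcnj8 by 3.60 ± 0.40, Pdgfrb by 2.15 ± 0.40 and Rgs5 by 1.89 ± 0.41 among them. The summed level of all 6 was 6.41 to 6.53 on adult and 6.28 to 6.68 on young arrays, most of it from Notch3. Without Notch3 it was 5.07 to 5.30 and 4.91 to 5.46, with Des the brightest of the rest (4.44 on adult and 5.05 on young arrays). Notch3 (-0.12 ± 0.20) and Des (-0.61 ± 0.21) did not pass. The means of the 4 higher markers lay between 0.63 and 2.51 on adult and between -2.19 and 0.42 on young arrays. Of 4 measured adipocyte markers (median 1.53), Adipoq (3.16 ± 0.24) and Cfd (2.27 ± 0.28) were higher, and Plin1 did not pass (0.80 ± 0.75, and -0.012 with quantile normalization). Their summed level was 1.81 to 4.10 on adult and 2.80 to 3.43 on young arrays, and without Fabp4, the brightest, 0.20 to 0.76 and -2.60 to -1.40. Of 8 myofibre markers (median -0.63), 4 were lower and 1 higher, with summed levels of 4.27 to 4.63 on adult and 5.17 to 5.71 on young arrays. Ryr1 (-1.19 ± 0.22), Atp2a1 (-1.07 ± 0.23) and Myh1 (-2.05 ± 0.47) had the smallest p among the lower ones, and Myh1 was well above background on 1 adult array. With 1 array left out, the higher calls numbered 0 to 3 among macrophage and among mural markers and 1 to 2 among adipocyte markers, while the lower calls among myofibre markers numbered 3 without young replicate 2 and 0 in each other such fit.

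In the limma fit, 0 of 6 endothelial genes passed, 0 of them with an unadjusted p under 0.05, at summed levels of 4.12 to 4.60 on adult and 4.15 to 4.81 on young arrays. Most of this came from Tek, and without it the sums were 1.43 to 2.52 on adult and 2.04 to 2.79 on young arrays. Pecam1 differed by -0.79 ± 0.48, Emcn by -0.75 ± 0.62 and Tek by -0.13 ± 0.25, and Tek lay above 0 in the deposited values (0.024) and with normexp and quantile normalization. Likewise 0 of 5 measured fibro-adipogenic genes passed, 2 of them with an unadjusted p under 0.05, at summed levels of 2.11 to 3.32 on adult and 3.38 to 4.26 on young arrays. Without Dcn, the brightest, the sums were -0.27 to 0.45 on adult and 0.50 to 3.03 on young arrays. Dpt differed by -0.90 ± 0.26, Col1a1 by -2.29 ± 0.82 and Dcn by -0.60 ± 0.38. Of the listed markers, Pdgfra and Lep had no probe past the background filter. The part of these cells in the Cdkn1c and Cdkn1a differences was not tested.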

How the data were processed

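RNA of sorted satellite cells from 3 adult and 3 young samples was hybridised to 1-colour Agilent arrays of 62976 spots. Per the file headers, the authors read the spots with Feature Extraction 10.7.3.1, whose intensity columns give a processed signal with background removed, beside mean and background signals. How the deposited log2 values of the series matrix were made is not stated by the labels. They differed by at most 0.000106 from normexp correction (offset 50) with quantile normalization computed here, and each column had a median of 7.56. All arrays shared 1 slide and 1 scan.

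The 3671 control spots and outlier spots were left out (4 spots of members were outliers, and none was saturated), and repeat spots were averaged into 55681 probes. From the log2 processed signal the 75th percentile of its array was subtracted. The fit took the 48404 probes that stood well above background on 3 or more arrays, tested with limma 3.58.1 in R 4.3.3 (lmFit, eBayes) over all 6 arrays with no covariate, with Benjamini-Hochberg adjustment and a threshold of 0.05. Files were read with the package data.table (version 1.17.8), and figures were drawn with matplotlib 3.10.9. Each list gene was represented by its brightest kept probe. A summed level is the log2 of the summed linear levels of a list's genes. An exact permutation test planned for probes of one member that disagreed is not given, since its pairs were chosen by the values it would test. The lower bound for a probe not above background in a group sets the brighter mean against the lowest signal well above background there. Promoter sequences are RefSeq's, build GRCm38.p6, and probe sequences and mm9 positions are the files'.

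The members and the gene lists were chosen with earlier results of these data known, and 1 gene of the replication list is not reported here. Named genes were all probes of the members, the 3 genes of each list with the smallest p, all measured genes of the Kcnq1 domain and the 5 genes most correlated with Cdkn1c. Cdt1, Rrm2, Ccnd1, Cdk2, Cdk1, Cdc25a, Mef2c, Pax7, Cd34, Itgam, Notch3, Des and Fabp4 were named besides, after their values were seen or as markers. The fit was tested on simulated arrays. Alternatives covered scaling, background correction, the deposited log2 values, the filter, the probe per gene, weights per array, the model of the variance, a block by array row or by replicate number, and each array left out. Counts of list genes under several of them were added after seeing the data. Normexp correction with quantile normalization and the deposited log2 values were almost the same data, but were counted as separate alternatives.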

Additional observations from a re-analysis of the deposited data

How the results depend on the processing

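The Cdkn1c difference kept its sign in all 18 alternatives (-4.46 to -3.73) and passed in 17, the exception being the replicate block, where it was -3.93 with an adjusted p of 0.0540 and 0 probes were called in either direction among all probes or members (18004 probes, 2 of them members, had an unadjusted p under 0.05). Same-numbered adult and young samples did not deviate together (correlations -0.009, -0.087 and -0.13), and each adult sample correlated best with a young sample of another number, so the numbers were not taken as pairs. At Cdkn1a A_55_P1986282 and A_55_P1976204, though not at the brightest Cdkn1a probe, replicate 2 was the lowest in both groups. With the replicate block A_55_P1986282 gave 2.24 ± 0.26 (adjusted p 0.0577, limma). Without 1 array, Cdkn1c lay between -4.10 and -3.73. Over all probes, median scaling gave 11580 lower and 4974 higher calls, quantile normalization gave 7074 in all, 3276 of them higher, and normexp correction and the deposited log2 values each gave 6066 lower and 5648 higher. The array row block gave 6695, 1000 of them lower, and trend with robust fitting gave 5663 lower. Leaving out 1 array gave 401 to 10402 calls (10402 without young replicate 2, at most 2721 without any other), 27 to 1306 lower and 374 to 9096 higher. Median scaling moved the median difference of all probes to -0.22. Among member probes, 3 were lower and 0 higher with median scaling, normexp and the deposited values, and 2 were lower with trend and robust fitting. The count was 1, with 0 higher, under quantile normalization, no filter, 1 probe per gene, array weights, the array row block and each fit without 1 array. The upstream Cdkn1a probe ranged from 1.09 to 2.80. The brightest Cdkn1a probe turned to 0.067 with the percentile over probes above background on all arrays, 0.048 with quantile normalization, 0.058 with normexp and the deposited values and 0.033 with the row block, and lay between -0.26 and 0.067 without 1 array (0.034 without adult replicate 2). Cdkn1a A_55_P1976204 turned to -0.037 and Cdkn2d to -0.34 with median scaling, and Cdkn2d lay between -0.32 and 0.53 without 1 array, below 0 without adult replicate 1. The causes of these changes were not tested. Signal over background limits Cdkn2a, Cdkn2b and Rbl1 most.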
